A study of Mus musculus with 9 samples.

Results

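The genes of 5 ion channel superfamilies were described in cultured mouse AdvSca1-SM cells: potassium, calcium and sodium channels with their auxiliary subunits, the canonical, melastatin and vanilloid TRP channels, and the anoctamins. Members were taken by a rule on the gene symbol that holds no measured value, though they were chosen with earlier results of these data known. The rule takes every gene whose symbol begins with Kcn, Cacna, Cacnb, Cacng, Scn, Trpc, Trpm, Trpv or Ano and carries a member number of those families. The symbol rule took 163 of the 55416 Ensembl genes counted, of which 52083 had a symbol. AdvSca1-SM cells are Sca1-expressing progenitors of the arterial adventitia that descend from smooth muscle. They were sorted as YFP+ Sca1+ cells from the pooled aortas and carotid arteries of 8-week-old SM22α-Cre-YFP mice, so the SM22α promoter that drives the Cre decides which cells carry the YFP. All 3 groups came from such subcultured cells, received 0.1% DMSO and were harvested after 72 h, with 3 libraries in each group. The labels give every library a growth arrest of 24 h in 0.1% FBS with both growth factors before that. Stem cells were held in stem cell medium, whose maintenance form contains 10% FBS, basic fibroblast growth factor and epidermal growth factor. TGF-β cells received 5 ng/mL TGF-β in DMEM with 0.1% FBS, and Both cells received the same plus 50 μM PFI-3, a compound directed at the bromodomain of the chromatin remodeler Brg1. Medium and TGF-β changed together between Stem and the other groups and cannot be told apart. Between TGF-β and Both only PFI-3 was added. The replicates are called independent in the study's text, but no source used here says that they came from separate animals, so p-values measure the spread between these cultures.

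Total counts per library ranged from 35686291 to 47741128, and values below are normalized counts, which are counts scaled to a library of 41184338. A library's floor of 3 counts then lies between 2.63 and 3.26 normalized counts. The progenitor markers of the label were present, with summed levels of 50989 to 59312 normalized counts in Stem and 12195 to 12314 in TGF-β. Pi16 went against that sum, from a mean of 508 in Stem to 5771 in TGF-β (log2 fold change 3.51, edgeR adjusted p = 3.66e-13). Pdgfra made up most of the Stem sum, at a mean of 45657 there and 5438 in TGF-β, where Pi16 had the highest mean. Dpp4 was low, with means of 8.61 in Stem and 2.38 in TGF-β. The summed myofibroblast markers lay between 326133 and 339468 in Stem and between 1119473 and 1197219 in TGF-β. Of the markers of other cells that are rich in ion channels, 4 of 7 for neurons, 3 of 5 for heart muscle and 5 of 7 for leukocytes stood at 3 counts or fewer in every library, and so did all 6 for hepatocytes. The neuron markers above that level were higher in TGF-β than in Stem. Tubb3 went from a mean of 2077 to 2690, Syt1 from 0.711 to 17.2 and Stmn2 from 1.41 to 24.5. The summed heart muscle markers, nearly all Tnnt2, went from between 1199 and 1525 in Stem to between 144 and 184 in TGF-β and between 117 and 124 in Both, while Myh6, Actc1 and Nppa were at 0 in every library. The summed endothelial markers lay between 116 and 214, between 1322 and 1473, and between 1026 and 1195 in the 3 groups, with Tie1 at 3 counts or fewer throughout. Erg rose from a mean of 100.4 in Stem to 1346 in TGF-β and Kdr rose from 0.721 to 26.1, while Tek fell from 45.7 to 18.3. The summed leukocyte markers, mostly Csf1r, lay between 19.6 and 41.9, between 71.0 and 103, and between 152 and 156. The summed Schwann cell markers lay between 161 and 212, between 559.8 and 657, and between 409 and 447, with Sox10 at 0. The smooth muscle markers split between Stem and TGF-β. Myh11 fell from a mean of 263 to 88.3 and Lmod1 from 504 to 311, while Acta2 rose from 4833 to 11215 and Tagln from 3402 to 9090. Among the skeletal muscle markers Acta1 rose from 2.49 to 32.7 and Tnnt3 from 8.17 to 19.2, with Myod1, Myog and Ckm at 0 in every library. The part of these shifts in the channel results was not tested.

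Ion channels set the membrane voltage and let signaling ions into the cell. In arterial smooth muscle, open potassium channels hold the membrane negative and keep voltage-gated calcium channels closed, while calcium entry through L-type channels triggers contraction. Fibroblasts and myofibroblasts are not usually excitable, and calcium enters them largely through TRP and store-operated channels, driven by the voltage that potassium channels maintain. Anoctamins are either calcium-activated chloride channels or scramblases that move lipids across membranes.

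Of the 163 members, 65 passed the filter on low counts and were tested. A member was past the threshold at an edgeR adjusted p below 0.05 with a log2 fold change beyond 1 in either direction. Group means are given ± SD over 3 libraries and log2 fold changes ± SE. Between Stem and TGF-β, 34 members were past the threshold, 17 higher and 17 lower in TGF-β, where 25.1% of all 14879 genes tested were, 10.6% higher and 14.5% lower. The 34 are 52.3% of the members tested and 20.9% of all members. The median of the absolute log2 fold change was 1.09 over the tested members and 0.49 over all genes tested, while the signed medians were -0.05 and -0.00. The 17 that fell had a median log2 fold change of -3.18. The 17 that rose had a median of 2.25, or 1.98 with the 4 genes whose Stem libraries were all at 3 counts or fewer set at their bound. The groups did not overlap for 54 of the 65 tested members (83.1%), against 76.8% of all genes tested. Another 20 members had an adjusted p below 0.05 with a change under 2-fold, 11 higher and 9 lower. With adjusted p alone 54 members passed, where 75.0% of all genes did, 37.3% higher and 37.7% lower.

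**Figure D1:**
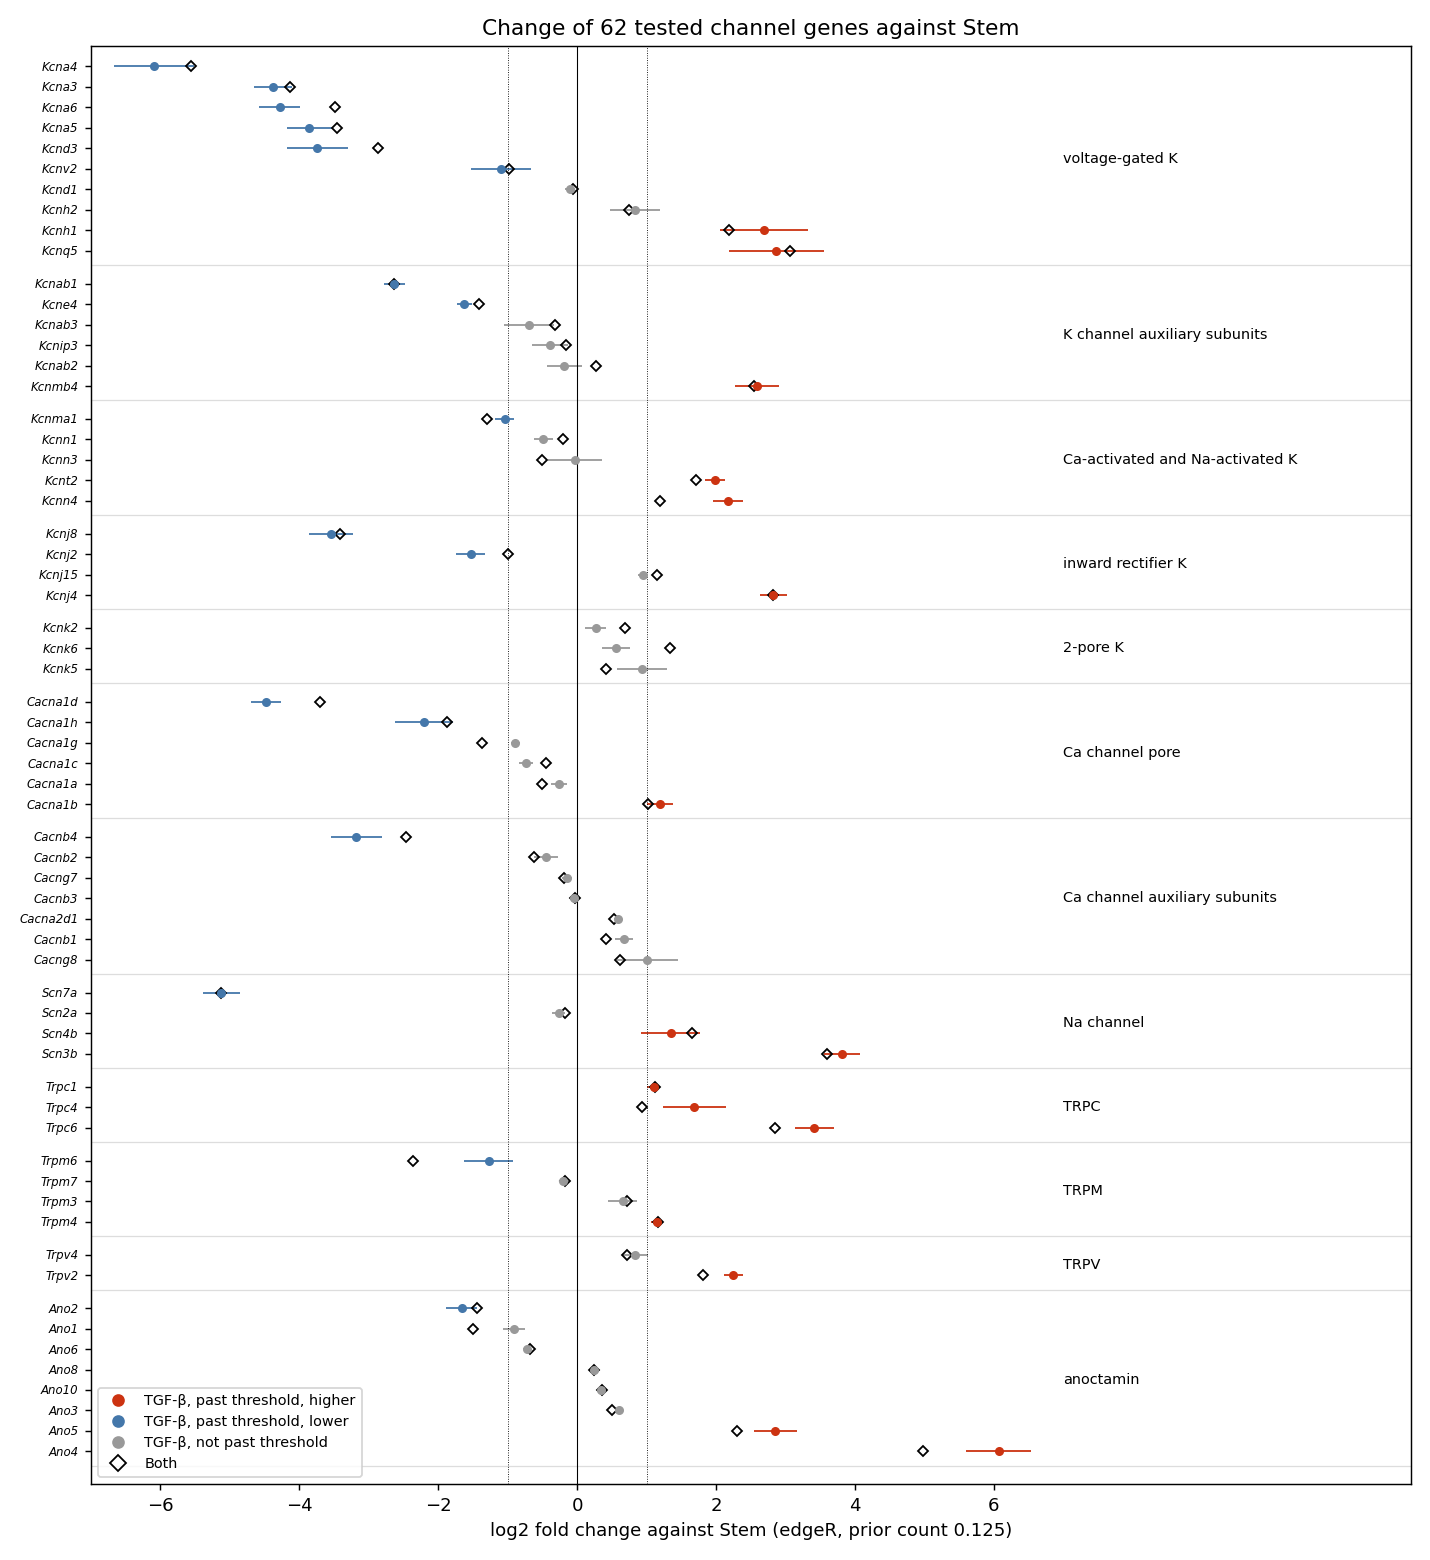
Log2 fold change against Stem of 62 of the 65 tested members on the x axis, by channel class on the y axis, for TGF-β (circles with SE, colored by call) and Both (open diamonds), with dotted lines at 2-fold. Kcna4, Scn7a and Cacna1d lie farthest to the left, the 3 TRPC genes all lie to the right, and the diamonds sit near the circles. Points of Kcna4, Ano4, Kcnh1 and Kcnq5 rest on a group at 3 counts or fewer per library and depend on the prior count.

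Among the voltage-gated potassium pore genes, which repolarize the membrane, Kcna3, Kcna4, Kcna5, Kcna6 and Kcnd3 each fell by more than 10-fold. Of 40 members 12 were tested, of which 6 fell, 3 rose and 3 were not past the threshold. Kcna3, the channel best known from T cells and proliferating smooth muscle, had 132, 133 and 145 normalized counts in the Stem libraries, 3.24, 11.2 and 4.88 in TGF-β and 7.20, 4.94 and 10.5 in Both. Kcna6 had 165, 122 and 157, then 8.63, 4.06 and 9.76 and 11.7, 7.90 and 19.3. For both genes every Stem library lay far above every library with TGF-β. Kcna3 fell 20.7-fold (log2 fold change -4.37 ± 0.27, edgeR adjusted p = 2.37e-08), or 32.2-fold without TGF-β replicate 2, and Kcna6 fell 19.5-fold (log2 fold change -4.28 ± 0.29, edgeR adjusted p = 4.99e-08). Kcna5, a delayed rectifier of arterial muscle, had 83.8, 59.8 and 83.3 in Stem, 8.63, 5.07 and 1.95 in TGF-β and 5.40, 6.91 and 7.90 in Both, and fell 14.5-fold (log2 fold change -3.85 ± 0.33, edgeR adjusted p = 3.98e-07). Kcna4, which carries a fast inactivating current, had 53.4, 101 and 81.1 in Stem, and in TGF-β 3 counts in all, at 1.08, 2.03 and 0. Its ratio of Stem to TGF-β was 76.6, with a 95% counting interval of 25.9 to 374 (exact Clopper-Pearson). Kcnd3, the other rapidly inactivating gene that fell, had 63.9, 156 and 125 in Stem and 3.24, 12.2 and 9.76 in TGF-β (log2 fold change -3.74 ± 0.43, edgeR adjusted p = 7.06e-06), with a Stem spread wider than that of Kcna3. Kcnv2, a silent subunit, was past the threshold with groups that overlapped, at 9.42, 16.3 and 18.4 and 3.24, 7.10 and 9.76 (log2 fold change -1.09 ± 0.43, edgeR adjusted p = 0.0373), and lost the call without Stem replicate 2 or 3 or TGF-β replicate 1 or 2 (adjusted p from 0.0766 to 0.135). Kcnd1 gave no detectable difference, at 587 ± 22.4 and 545 ± 37.4 (log2 fold change -0.11 ± 0.07, edgeR adjusted p = 0.201).

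Of the genes of this class that rose, Kcnq5 and Kcnh1 did so from near the floor. Kcnq5, a subunit of the M-type current found in vascular muscle, had 1.05, 0 and 3.25 in Stem, where no library exceeded 3 counts, and 8.63, 10.1 and 14.6 in TGF-β (edgeR adjusted p = 0.00230). Kcnh1, a channel of the ether-a-go-go family, had 0, 2.17 and 3.25 in Stem, again at most 3 counts, and 10.8, 11.2 and 14.6 in TGF-β (edgeR adjusted p = 0.00206).

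The makeup of the class changed with the falls. Levels were compared between genes per length, as TPM (counts per base of exon, rescaled to the same total in every library) computed from the counts and exon lengths. The 40 genes summed to 25.9 ± 1.16 TPM in Stem, against 11.4 ± 0.354 in TGF-β and 11.9 ± 1.06 in the Both group. Kcna3, Kcna4, Kcna5 and Kcna6 together made up 45.8% ± 1.45 (SD, n = 3) of that sum in Stem, but 4.73% ± 1.48 with TGF-β and 5.71% ± 1.20 with PFI-3 as well. The share of Kcnd1 went from 36.5% ± 0.639 to 72.7% ± 3.06 and 69.6% ± 2.26. Every Stem library thus held a mixed set led by Kcnd1 and Kcna3, and every library with TGF-β held mostly Kcnd1.

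**Figure D2:**
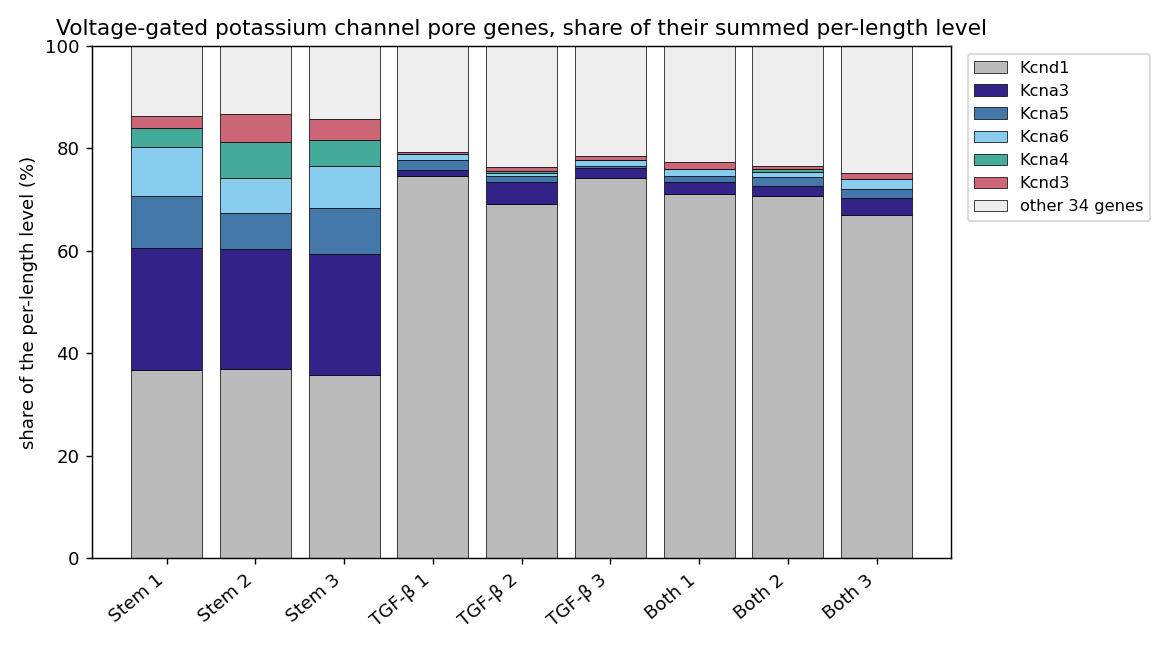
Stacked bars of the share (%) of 6 voltage-gated potassium pore genes, with the other 34 pooled, in the class's summed per-length level, 1 bar for each of the 9 libraries. Kcnd1 takes 36.5% on average in Stem and 72.7% in TGF-β, and the 4 Kcna genes shown shrink from 45.8% to 4.73%.

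To show the control regions of genes described here that moved with the medium and TGF-β, 250 bases upstream of the RefSeq start (build GRCm38.p6) are printed for 4 genes that fell and 2 that rose, 5′ to 3′ on the gene's strand. Capitals mark matches on either strand to AP-1 (TGANTCA), SMAD (CAGAC), TEAD (GGAATG) or the CArG box of serum response factor. The windows are Kcna3 chr3:107035912-107036161 (+), Kcna5 chr6:126535556-126535805 (-), Kcna6 chr6:126740675-126740924 (-), Kcnj8 chr6:142571615-142571864 (-), Trpc6 chr9:8543892-8544141 (+) and Kcnn4 chr7:24370013-24370262 (+).
Kcna3: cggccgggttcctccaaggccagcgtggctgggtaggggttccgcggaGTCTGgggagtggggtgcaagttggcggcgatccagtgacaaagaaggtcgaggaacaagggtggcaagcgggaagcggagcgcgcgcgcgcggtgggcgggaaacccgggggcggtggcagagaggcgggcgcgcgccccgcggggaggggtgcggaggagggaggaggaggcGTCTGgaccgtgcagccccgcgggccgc
Kcna5: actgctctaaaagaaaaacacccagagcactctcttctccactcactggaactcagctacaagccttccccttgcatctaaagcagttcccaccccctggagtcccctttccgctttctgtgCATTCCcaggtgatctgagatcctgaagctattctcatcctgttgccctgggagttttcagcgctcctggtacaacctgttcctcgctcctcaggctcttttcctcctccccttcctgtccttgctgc
Kcna6: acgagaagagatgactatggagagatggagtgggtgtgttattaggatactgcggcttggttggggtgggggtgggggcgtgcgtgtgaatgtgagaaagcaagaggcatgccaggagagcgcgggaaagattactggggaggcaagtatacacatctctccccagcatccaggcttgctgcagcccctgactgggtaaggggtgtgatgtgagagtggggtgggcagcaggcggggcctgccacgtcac
Kcnj8: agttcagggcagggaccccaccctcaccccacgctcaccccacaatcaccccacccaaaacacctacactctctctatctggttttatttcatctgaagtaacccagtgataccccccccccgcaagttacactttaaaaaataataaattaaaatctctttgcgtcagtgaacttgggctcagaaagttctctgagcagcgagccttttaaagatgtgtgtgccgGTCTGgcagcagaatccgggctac
Trpc6: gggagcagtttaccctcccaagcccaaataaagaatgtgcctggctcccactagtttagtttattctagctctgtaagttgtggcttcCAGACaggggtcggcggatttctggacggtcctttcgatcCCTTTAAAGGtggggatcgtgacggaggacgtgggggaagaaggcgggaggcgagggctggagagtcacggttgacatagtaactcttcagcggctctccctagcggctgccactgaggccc
Kcnn4: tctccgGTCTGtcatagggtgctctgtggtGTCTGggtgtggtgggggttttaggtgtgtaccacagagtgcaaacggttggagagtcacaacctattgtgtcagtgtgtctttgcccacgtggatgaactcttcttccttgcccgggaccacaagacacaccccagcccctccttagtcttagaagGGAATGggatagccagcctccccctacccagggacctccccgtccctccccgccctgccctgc
Kcna5 and Kcna6 lie on the same strand of chromosome 6. The Kcna3 window holds 2 matches to CAGAC, Kcna5 holds 1 to GGAATG, Kcnj8 holds 1 to CAGAC and Kcna6 holds none of the 4 motifs. Trpc6 holds a CArG box from 122 to 113 bases before the start and CAGAC from 162 to 158 bases before it. Kcnn4 holds 2 matches to CAGAC and 1 to GGAATG. In windows of 300 bases that include 50 bases after the start, 10 of 17 entries of members that rose and 14 of 22 of those that fell held CAGAC (58.8% and 63.6%), where 49.6% of all 32851 promoters did. GGAATG was held by 17.6% and 9.09%, against 14.7% of all promoters. The CArG box was held by 1 of the 17, that of Trpc6, and by none of the 22, against 1.63% of all promoters. TGANTCA was held by none of either, against 7.81% of all. A match is a string of letters and was not tested as a binding site. RefSeq entries were matched for 124 of the 163 members and 52 of the 65 tested.

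Potassium channels depend on auxiliary subunits that set their gating and surface level, and the 2 most counted of these fell. Of 15 members 6 were tested, of which 2 fell and 1 rose. Kcne4, a single-pass subunit that dampens Kcna3 and other channels, had the highest mean level per length of all 163 members in Stem, at 146 ± 24.9 TPM, a mean not clear of the next member's range. Its normalized counts were 5349, 3835 and 4439 in Stem, 1598, 1377 and 1444 in TGF-β and 1778, 1549.7 and 1796 in Both, a fall of 3.08-fold (log2 fold change -1.62 ± 0.11, edgeR adjusted p = 3.51e-08). Kcnab1, the β subunit that binds Kcna channels and speeds their inactivation, went from 423, 631 and 515 to 93.9, 76.1 and 83.0 and 89.1, 88.8 and 73.7 (log2 fold change -2.63 ± 0.15, edgeR adjusted p = 1.23e-08). Its relative Kcnab2 had 30.6 ± 10.1 and 26.9 ± 1.39 (log2 fold change -0.19 ± 0.25, edgeR adjusted p = 0.512), a difference within the spread. Kcnmb4, a β subunit of the large-conductance calcium-activated channel, rose from 3.14, 3.26 and 4.33 to 24.8, 19.3 and 22.5 (log2 fold change 2.59 ± 0.31, edgeR adjusted p = 9.9e-06). Kcnmb1, the β subunit typical of mature smooth muscle, had at most 1 count in any library.

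Calcium-activated and sodium-activated potassium genes moved in different directions. Of 8 members 5 were tested, of which 2 rose and 1 fell. Kcnma1, the pore of the large-conductance channel of smooth muscle, had 1823, 2567 and 2109 in Stem, 1011, 1240.3 and 899 in TGF-β and 754, 980.1 and 899.6 in Both (log2 fold change -1.04 ± 0.14, edgeR adjusted p = 2.12e-05). Its fall sits at the 2-fold limit and went under it without Stem replicate 2 (-0.90) and without TGF-β replicate 3 (-0.93). Kcnn4, the intermediate-conductance channel known from proliferating smooth muscle and fibroblasts, had 14.7, 15.2 and 28.1 in Stem and 77.7, 90.3 and 93.7 in TGF-β, a rise of 4.50-fold (log2 fold change 2.17 ± 0.22, edgeR adjusted p = 1.92e-06). Kcnt2, a sodium-activated channel, rose from 191, 306 and 252 to 886, 1107 and 967 (log2 fold change 1.98 ± 0.14, edgeR adjusted p = 8.23e-08). Between the groups neither of these overlapped, and Kcnt2 became the twelfth highest member per length, at 11.5 ± 1.29 TPM.

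**Figure D3:**
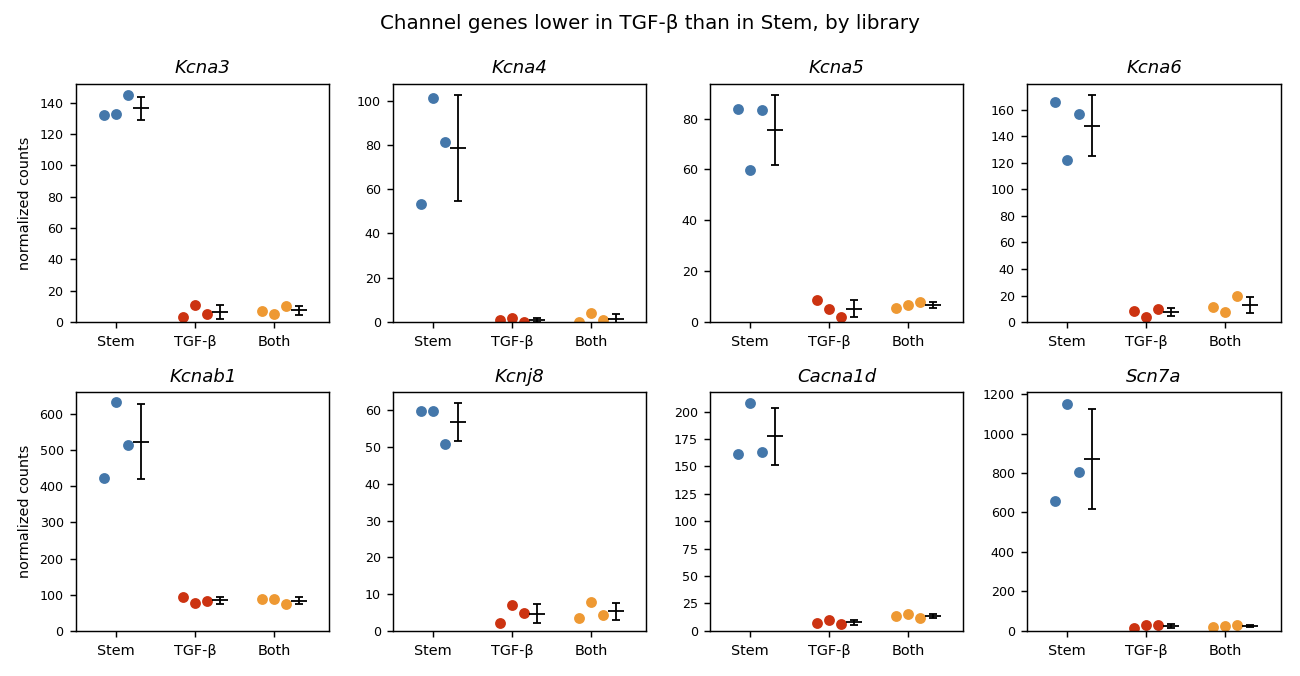
Normalized counts (y axis, starting at 0, scale set for each gene) of 8 members that fell, in the 3 libraries of Stem, TGF-β and Both, with mean and SD as bars beside the points. In each panel the 3 Stem libraries lie above all 6 libraries with TGF-β, as for Scn7a at 656 to 1152 against 14.0 to 32.2.

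Inward rectifiers were split. Of 15 members 4 were tested: Kcnj8 and Kcnj2 fell, Kcnj4 rose, and Kcnj15 was higher by less than 2-fold. Kcnj8, the pore of the vascular ATP-sensitive channel, had 59.7, 59.8 and 50.8 in Stem, 2.16, 7.10 and 4.88 in TGF-β and 3.60, 7.90 and 4.39 in Both, a fall of 11.6-fold (log2 fold change -3.54 ± 0.32, edgeR adjusted p = 6.31e-07). Abcc9, the sulfonylurea receptor subunit that pairs with it and is not a member by symbol, fell too, from 648 ± 57.5 to 66.6 ± 17.8 (log2 fold change -3.29 ± 0.16, edgeR adjusted p = 2.16e-09). Kcnj2, the classical strong rectifier of small arteries, had 635, 336 and 515, then 196, 142 and 176 and 258, 204 and 283 (log2 fold change -1.53 ± 0.21, edgeR adjusted p = 3.18e-05). Kcnj4, another strong rectifier, went the other way, from 13.6, 27.2 and 32.5 to 173, 169 and 177 and 161, 191 and 167 (log2 fold change 2.82 ± 0.20, edgeR adjusted p = 6.16e-08). Kcnj15 was the most abundant of the class, at 1928 ± 195 in Stem against 3718 ± 221 in TGF-β and 4259 ± 305 in Both (log2 fold change 0.95 ± 0.07, edgeR adjusted p = 1.94e-07). With Kcnj15 the class sum per length went from 36.7 ± 4.78 to 56.8 ± 3.30 and 62.2 ± 3.45 TPM.

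The 2-pore potassium genes, which carry background current, showed no member past the threshold. Of 14 members 3 were tested. Kcnk6 was higher by less than 2-fold, at 52.6 ± 6.73 and 77.7 ± 10.8 (log2 fold change 0.57 ± 0.20, edgeR adjusted p = 0.0227), and this call was lost without Stem replicate 1 (adjusted p = 0.0720) and without TGF-β replicate 3 (adjusted p = 0.0894). Kcnk2, a stretch-sensitive channel, had 64.7 ± 12.6 and 77.9 ± 3.65 (log2 fold change 0.27 ± 0.15, edgeR adjusted p = 0.130). Kcnk1 was at 0 in every library and Kcnk3, the acid-sensitive channel of pulmonary arteries, had at most 2 counts.

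Among the calcium channel pore genes, the neuroendocrine L-type gene nearly disappeared and the vascular L-type and T-type genes were lower. Of 10 members 6 were tested: Cacna1d and Cacna1h fell and Cacna1b rose. Cacna1d had 161, 208 and 163 in Stem, 7.55, 10.1 and 5.86 in TGF-β and 13.5, 15.8 and 11.4 in Both, a fall of 22.3-fold (log2 fold change -4.48 ± 0.22, edgeR adjusted p = 2.17e-09). It shares 589 exonic bases with Chdh on the opposite strand, which went from 77.4 to 17.1 and 20.4. The paper's methods name a stranded library kit, but the strand setting of the counting is not given in the sources used here. Cacna1c, the main L-type pore of smooth muscle, was lower by less than 2-fold, at 2143, 1714 and 1886 against 1279, 996 and 1183 (log2 fold change -0.73 ± 0.10, edgeR adjusted p = 4e-05). The T-type gene Cacna1g had 1133, 1018 and 1126 in Stem, 589, 608 and 567 in TGF-β and 421, 453 and 392 in Both (log2 fold change -0.89 ± 0.07, edgeR adjusted p = 9.98e-08). Its groups form a stepped order with no overlap. The T-type gene Cacna1h was low, at 19.4 ± 5.01 and 4.07 ± 1.93 (log2 fold change -2.21 ± 0.41, edgeR adjusted p = 0.000393). Cacna1b, the N-type pore of nerve endings, rose from 19.9, 25.0 and 19.5 to 45.3, 54.8 and 46.9 (log2 fold change 1.19 ± 0.19, edgeR adjusted p = 0.000104). Cacna1a, the P/Q-type pore, had 362 ± 34.5 and 303 ± 8.95 (log2 fold change -0.26 ± 0.12, edgeR adjusted p = 0.0651). The class sum per length went from 21.1 ± 0.927 to 11.7 ± 0.406 and 10.6 ± 0.477 TPM.

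The calcium channel auxiliary genes set the surface level and gating of the pores. Of 16 members 7 were tested, and Cacnb4 alone, a β subunit, was past the threshold, at 38.0 ± 9.55 and 4.02 ± 1.85 (log2 fold change -3.18 ± 0.37, edgeR adjusted p = 7.63e-06). Its exons share 1433 bases with A430018G15Rik on the opposite strand, which stood between 35.3 and 36.1 in the 3 groups. Cacna2d1, the α2δ subunit that brings pores to the surface, was higher by less than 2-fold, from 2352, 2819 and 2473 to 3809, 3880.2 and 3788 (log2 fold change 0.59 ± 0.06, edgeR adjusted p = 1.82e-06). Cacnb3, the most abundant β subunit, differed by less than its spread, at 1705 ± 69.3 and 1649 ± 83.1 (log2 fold change -0.05 ± 0.06, edgeR adjusted p = 0.457). Cacnb2 had 143 ± 32.1 and 105 ± 12.5 with groups that overlapped (log2 fold change -0.45 ± 0.18, edgeR adjusted p = 0.0359), and its call was lost without Stem replicate 1 or 3 or TGF-β replicate 1 or 3 (adjusted p from 0.0582 to 0.167). Cacna2d3 had at most 3 counts.

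Among the sodium channel genes an atypical pore fell and 2 β subunits rose, with 5 of 14 members tested. Scn7a, a pore gated by extracellular sodium rather than by voltage, had 656, 1152 and 804 in Stem, 14.0, 27.4 and 32.2 in TGF-β and 18.9, 25.7 and 29.8 in Both, a fall of 34.9-fold (log2 fold change -5.12 ± 0.27, edgeR adjusted p = 4.3e-09). Its Stem libraries varied widely, yet the lowest of them was far above the highest of the 6 libraries with TGF-β. Scn3b, a β subunit and adhesion protein, rose from 6.28, 5.43 and 9.74 to 107, 114 and 85.9 and 81.9, 105 and 77.2 (log2 fold change 3.81 ± 0.26, edgeR adjusted p = 4.72e-08). Scn4b, another β subunit, rose from 5.23, 7.61 and 5.41 to 16.2, 8.11 and 22.5 (log2 fold change 1.35 ± 0.42, edgeR adjusted p = 0.0116), and lost its call without TGF-β replicate 3 (adjusted p = 0.0663). Scn1a reached at most 22 counts and Scn3a 3, and neither was tested.

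**Figure D4:**
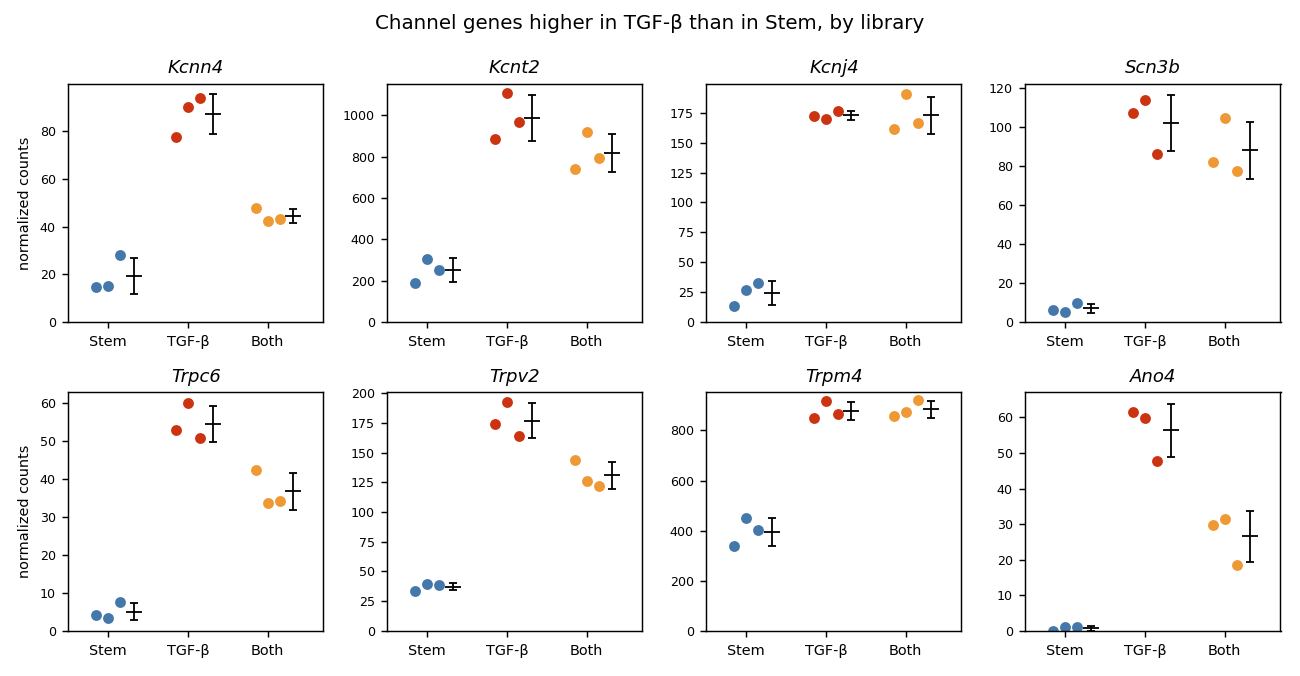
Normalized counts (y axis, starting at 0, scale set for each gene) of 8 members that rose, in the 3 libraries of Stem, TGF-β and Both, with mean and SD as bars beside the points. Both lies close to TGF-β for Kcnj4 and Trpm4 and between Stem and TGF-β for Kcnn4, Trpc6, Trpv2 and Ano4.

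All 3 tested TRPC genes, subunits of receptor-operated cation channels, rose, out of 7 members. Trpc6, a diacylglycerol-activated subunit known from myofibroblasts, had 4.19, 3.26 and 7.57 in Stem, 52.9, 59.8 and 50.8 in TGF-β and 42.3, 33.6 and 34.2 in Both, a rise of 10.7-fold (log2 fold change 3.41 ± 0.28, edgeR adjusted p = 2.92e-07). Trpc1, the most abundant of the class, rose from 164, 139 and 168 to 361, 333 and 320.2 (log2 fold change 1.10 ± 0.09, edgeR adjusted p = 3.57e-07), and with total counts as the scaling it came under the 2-fold limit, at 0.98 on the log2 scale. Trpc4 rose from 3.94 ± 2.29 to 12.9 ± 0.75 (log2 fold change 1.69 ± 0.45, edgeR adjusted p = 0.00490). The class sum per length went from 1.86 ± 0.174 to 4.47 ± 0.161 TPM in TGF-β.

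Of 8 TRPM members 4 were tested and of 6 TRPV members 2. Trpm4, a calcium-activated channel that lets in sodium, rose from 338, 449 and 401 to 849, 917 and 865 and 858, 872 and 922 (log2 fold change 1.15 ± 0.09, edgeR adjusted p = 1.11e-07). Trpm6, a magnesium channel of kidney and gut, fell from 30.4, 18.5 and 28.1 to 7.55, 14.2 and 9.76 (log2 fold change -1.27 ± 0.35, edgeR adjusted p = 0.00590). Trpm7, a magnesium-permeable channel fused to a kinase, was the fourth highest member per length in Stem and was lower by well under 2-fold, at 7552 ± 379 and 6574 ± 30.7 (log2 fold change -0.20 ± 0.04, edgeR adjusted p = 0.000777). Trpv2, a vanilloid channel responsive to stretch, had 33.5, 39.1 and 38.9 in Stem, 174, 193 and 164 in TGF-β and 144, 126 and 122 in Both, a rise of 4.75-fold (log2 fold change 2.25 ± 0.14, edgeR adjusted p = 1.58e-08). Trpv4, the osmotically and mechanically gated channel of vascular cells, was higher by less than 2-fold, from 42.5 ± 6.01 to 76.0 ± 13.6 (log2 fold change 0.83 ± 0.19, edgeR adjusted p = 0.00146).

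Anoctamins were the class with the fewest untested members: 8 of 10 were tested, 2 rose and 1 fell past the threshold, and all 8 had an adjusted p below 0.05, as did 75.0% of all genes, of which Ano8 lost it with total counts as the scaling (0.0864). Ano4, a family member described as a scramblase, had 2 counts in all over the Stem libraries (0, 1.09 and 1.08 normalized), 61.5, 59.8 and 47.8 in TGF-β and 29.7, 31.6 and 18.4 in Both. Its ratio of TGF-β to Stem was 78.7, with a 95% counting interval of 21.4 to 655 (exact Clopper-Pearson). Ano5, a scramblase best known from skeletal muscle, rose from 7.48 ± 2.01 to 55.3 ± 15.7 (log2 fold change 2.86 ± 0.31, edgeR adjusted p = 3.3e-06). Ano2, a calcium-activated chloride channel of sensory cells, fell from 52.3, 48.9 and 48.7 to 20.5, 13.2 and 13.7 (log2 fold change -1.66 ± 0.22, edgeR adjusted p = 1.95e-05). Ano1, the calcium-activated chloride channel of smooth muscle, was lower by less than 2-fold, at 126, 133 and 155 against 80.9, 73.0 and 66.4 (log2 fold change -0.91 ± 0.15, edgeR adjusted p = 0.000172). Ano6, the scramblase that exposes phosphatidylserine and the highest of its class in Stem per length, was lower by less than 2-fold, at 10520.2, 9247 and 10055 and 6263, 5843 and 5901 (log2 fold change -0.73 ± 0.05, edgeR adjusted p = 6.18e-08). Ano10 was slightly higher, from 2653, 2764 and 2754 to 3411, 3437 and 3497, with a spread so small that the groups were far apart (log2 fold change 0.34 ± 0.03, edgeR adjusted p = 2.01e-06). The class sum per length moved little, from 143 ± 4.78 to 131 ± 2.32 and 125 ± 1.42 TPM.

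The comparison of TGF-β with Both asks what PFI-3 changed in cells given TGF-β. Between TGF-β and Both, 2 members were past the threshold, 1 higher and 1 lower in Both, the lower one being Ano4, 3.08% of those tested, where 0.632% of all genes were. With adjusted p alone 6 passed (2 higher and 4 lower), 9.23% of those tested. Of all genes 8.92% did, 3.54% higher and 5.38% lower. The median of the absolute log2 fold change was 0.26 over the tested members and 0.11 over all genes tested. The groups did not overlap for 19 (29.2%), against 32.7% of all genes tested. By adjusted p alone and by overlap the members were near the share of all genes.

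Kcnn4 had 77.7, 90.3 and 93.7 in TGF-β and 47.7, 42.4 and 43.0 in Both, every Both library below every TGF-β library and above every Stem library (log2 fold change -0.97 ± 0.18, edgeR adjusted p = 0.00692). Ano4 was lower in Both, at 29.7, 31.6 and 18.4 against 61.5, 59.8 and 47.8 (log2 fold change -1.09 ± 0.23, edgeR adjusted p = 0.0136). Trpv2 was lower by less than 2-fold, at 144, 126 and 122 against 174, 193 and 164 (log2 fold change -0.43 ± 0.11, edgeR adjusted p = 0.0295). For these 3 genes TGF-β was above Stem, so Both lay between Stem and TGF-β. Cacna1g, in contrast, was lower in TGF-β than in Stem and lower again in Both, at 421, 453 and 392 against 589, 608 and 567 (log2 fold change -0.48 ± 0.07, edgeR adjusted p = 0.00127). Kcnk6, a 2-pore potassium channel, was higher in TGF-β than in Stem and higher again in Both, at 156, 101 and 142 against 74.5, 69.0 and 89.8 (log2 fold change 0.77 ± 0.17, edgeR adjusted p = 0.0172).

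Among these 5, the calls of Kcnn4 and Cacna1g held without each of the 6 libraries in turn. Ano4 lost its call without Both replicate 3 (adjusted p = 0.0506), TGF-β replicate 1 (0.0589) or TGF-β replicate 2 (0.0628). Trpv2 lost it without any library other than Both replicate 1 (0.0544 to 0.135), and Kcnk6 without Both replicate 1 or 3 or TGF-β replicate 1 or 2 (0.0668 to 0.0830).

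**Figure D5:**
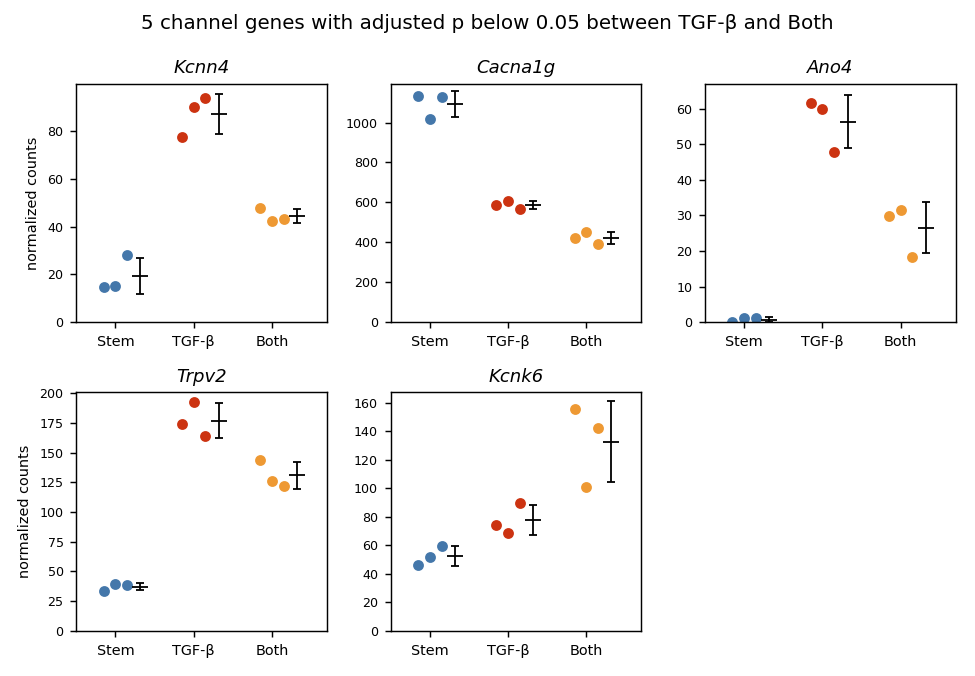
Normalized counts (y axis, starting at 0, scale set for each gene) of 5 of the 6 members with an edgeR adjusted p below 0.05 between TGF-β and Both, in all 9 libraries, with mean and SD as bars. Both lies between Stem and TGF-β for Kcnn4, Ano4 and Trpv2 and beyond TGF-β for Cacna1g and Kcnk6.

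The 4 Kcna genes that had fallen stayed low with PFI-3. Kcna3 was at 7.56 ± 2.82 in Both against 6.42 ± 4.18 in TGF-β (log2 fold change 0.24 ± 0.45, edgeR adjusted p = 0.806), and Kcna6 at 13.0 ± 5.81 against 7.48 ± 3.02 (log2 fold change 0.80 ± 0.43, edgeR adjusted p = 0.288). Scn7a was at 24.8 ± 5.52 against 24.5 ± 9.42 (log2 fold change 0.00 ± 0.47, edgeR adjusted p = 1.00). Kcnj2 was higher in each Both library than in each TGF-β library without passing the test (log2 fold change 0.54 ± 0.22, edgeR adjusted p = 0.157), and Trpc6 was lower in each without passing it (log2 fold change -0.57 ± 0.19, edgeR adjusted p = 0.0843). Ano1 was at 37.8, 51.3 and 56.2, and just missed the test (log2 fold change -0.60 ± 0.17, edgeR adjusted p = 0.0524).

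Stem and Both were compared with the same Stem libraries, so the 2 comparisons against Stem are not independent. Between Stem and Both, 35 members were past the threshold, 18 higher and 17 lower in Both, where 22.8% of all genes were. Of these, 31 were past it in the same direction in TGF-β, 16 higher and 15 lower, a count that the shared Stem libraries help to fix. Past it in TGF-β alone were Trpc4, Kcnj2 and Kcnv2, and in Both alone were Kcnk6, Cacna1g, Ano1 and Kcnj15. Kcnk6 reached 1.34 ± 0.19 on the log2 scale against Stem, Cacna1g -1.37 ± 0.07, Ano1 -1.50 ± 0.16 and Kcnj15 1.14 ± 0.07.

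Ion transport genes outside these symbols were followed as a list of 106 stretch, store-operated, organelle, chloride and other cation channels, channel partners, pumps and exchangers. Of 66 tested, 12 rose and 5 fell between Stem and TGF-β, which is 25.8% and near the 25.1% of all genes. Piezo2, a stretch-gated cation channel, rose from 1591, 1912 and 1752 to 49707, 49284 and 49745, with 42053, 43691 and 40548 in Both (log2 fold change 4.82 ± 0.07, edgeR adjusted p = 9.59e-14). Atp2b4, a plasma membrane calcium pump, rose from 263 ± 9.75 to 2770.0 ± 166 (log2 fold change 3.40 ± 0.07, edgeR adjusted p = 1.98e-12). Atp2a3, a calcium pump of the endoplasmic reticulum, went from 2 counts in all to 241, 230.2 and 205, a ratio of 315 with a 95% counting interval of 86.8 to 2603 (exact Clopper-Pearson), and was lower in Both (log2 fold change -0.63 ± 0.11, edgeR adjusted p = 0.00461). Atp1b1, a β subunit of the sodium pump, fell from 2471 ± 286 to 442 ± 114 (log2 fold change -2.48 ± 0.18, edgeR adjusted p = 8.36e-08). Between TGF-β and Both 1 of the 66 (1.52%) was past the threshold, where 0.632% of all genes were. By adjusted p alone 12 passed (18.2%), where 8.92% of all genes did. The groups did not overlap for 28 (42.4%), against 32.7% of all genes. The 1 past the threshold was Nalcn, the sodium leak channel. Nalcn had 1.05, 5.43 and 4.33 in Stem, 77.7, 118 and 85.9 in TGF-β and 18.0, 31.6 and 27.2 in Both (log2 fold change -1.88 ± 0.25, edgeR adjusted p = 0.000698). Abcc9, the partner of Kcnj8, was higher by less than 2-fold in Both (log2 fold change 0.79 ± 0.19, edgeR adjusted p = 0.0218). Between Stem and Both, 12 rose and 6 fell, which is 27.3% of the 66, where 22.8% of all genes were past the threshold.

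The other 98 members were too low to test. Of them, 17 were at 0 in every library, 58 reached 1 to 3 counts at most, 19 reached 4 to 10, and 4 went higher. Differences among these genes were not detectable at this depth.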

How the data were processed

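RNA-Seq was measured in 9 libraries, 3 each of Stem, TGF-β and Both. The authors deposited whole-number counts of reads for each Ensembl gene and library, not normalized. The paper's methods name a stranded library kit with ribosomal RNA depletion, Flexbar and STAR. The submitters' processing notes instead list HISAT2 2.2.1, SAMtools 1.13 and HTSeq 0.11.3, and both sources name GRCm39. The strand setting of the counting and the handling of multiply aligned reads are not given in the sources used here.

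The counts were tested with edgeR 4.0.16 under R 4.3.3. The 14879 genes kept by filterByExpr were scaled by TMM (factors 0.967 to 1.08) and fitted together over all 9 libraries (quasi-likelihood test, Benjamini-Hochberg adjusted p over all genes tested), at the adjusted p of 0.05 and 2-fold limit of the study's methods, which name DESeq2. The lowest Spearman correlation across genes between replicates was 0.995, and genes are not independent replicates. Counting intervals cover counting error only. Per-length levels used union exon lengths from GENCODE M21, which is of build GRCm38, so no coordinates but those of the RefSeq promoters are given. All 163 members had a length, and the genes with one held 98.1% of all counts. On simulated counts of 14540 genes for Stem versus TGF-β, edgeR recovered 98 of 100 genes changed by 1.5 and 99 of 100 changed by 2 on the log2 scale, with 1 false call. The changed genes were drawn only from genes above a minimum mean count, so recovery of low-count members was not tested. They were also a far smaller share of the genes than the 25.1% past the threshold in the data.

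The members and lists were chosen with earlier results of these data known. The genes named were a fixed list by role in vascular muscle and fibroblasts, up to 3 rises and 3 falls per class and comparison among non-overlapping members whose higher group averaged 50 normalized counts or more, and each member with an adjusted p below 0.05 between TGF-β and Both. Kcnd1, Kcnd3, Kcnh1, Kcnv2, Kcnmb4, Cacna1b, Cacnb4, Scn4b, Trpm6, Ano2, Ano8 and the ion transport genes outside the symbol rule were named after their values were seen. Some members are counted but not reported by name here. Alternatives were DESeq2 1.42.0, other scalings and filters, a fit of 6 libraries, a replicate block, a prior count of 2, other fold limits and leaving out each library. The extract label names hepatic tissue, while the source is artery.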

Additional observations from a re-analysis of the deposited data

How the results depend on the processing

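Among the channel genes named, no called change turned its direction in the alternative runs made for that gene. The 34 channel genes called between Stem and TGF-β became 25 (edgeR's TREAT test against 2-fold) to 42 (no filter on low counts) over the planned settings with a fold limit and 54 without a fold-change minimum, and ran from 31 to 37 when 1 library was left out. Between Stem and Both, 35 became 26 to 44, was 53 without the fold-change minimum, and ran from 35 to 38 with 1 library left out. Between TGF-β and Both the count of 2 became 1 with DESeq2, 1 with a mean of at least 10 counts, 0 with TREAT and 6 without the fold-change minimum, and ran from 0 (without TGF-β replicate 2) to 2 with 1 library left out. The first 2 of these settings set aside low-count genes by construction, and the cause of the losses without 1 library was not tested. With total counts as the scaling, the median of all genes in that first comparison lay at -0.12 on the log2 scale, and the split of the 34 calls became 15 higher and 19 lower; in the comparison of Stem with Both the median lay at -0.11. Without the filter on low counts 9 further members passed between Stem and TGF-β, Scn1a among them.

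Replicate numbers recur across the groups in the labels. The deviations of same-numbered libraries correlated between -0.05 and 0.20, not all above 0.1, and not every library correlated best with its own number, so the numbers were not taken to pair the samples. With a replicate block the counts past the threshold were 34, 2 and 35, and for the other ion transport genes 17, 1 and 18. At an adjusted p below 0.05 alone, the block added Ano1, Cacna1c, Kcne4, Kcnj15, Kcnj2, Kcnma1 and Kcnt2 between TGF-β and Both among the genes named.

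Depth limits the 98 untested members, and genes whose groups hold 3 counts or fewer have no fitted fold that can be read as a size.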
